A study of Mus musculus with 18 samples.

Results

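The expression of 10 keratin genes, Krt5, Krt7, Krt8, Krt14, Krt15, Krt17, Krt18, Krt19, Krt20 and Krt80, was followed in 4T1 cells, a mammary tumour line from a BALB/c mouse. The genes were taken by their symbols, and all 10 were found among the 34591 gene symbols of the count tables. Poly(A) RNA was sequenced from 18 cultures in 6 groups of 3. Parental cells were given 2 ng/mL recombinant human TGFb1 in fresh RPMI for 24 h, and untreated parental cells were given fresh RPMI alone for 24 h. The other 12 cultures came from a pair of stable lines, made by lentiviral transduction and puromycin selection, that carried Wisp1 or an empty vector (EV). Each stable line was grown on dishes coated with collagen type I and on tissue culture plastic, and RNA was taken from subconfluent cultures. All cells were maintained in RPMI with fetal calf serum and antibiotics. Each stable line is a single selected line, so the replicates are cultures and not independent transductions, and the p-values measure only the spread between these cultures.

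Keratins are the intermediate filament proteins of epithelial cells, and a filament is assembled from equal parts of a type II and a type I keratin. In the mammary gland, luminal cells carry the simple pair Krt8 (type II) and Krt18 (type I), together with Krt7 (type II) and Krt19 (type I), whereas the basal, myoepithelial layer carries Krt5 (type II) and Krt14 (type I). Krt15 and Krt17 are type I keratins of basal and of stress-activated or appendage epithelium, Krt20 is a type I keratin of gut and bladder lining, and Krt80 is a type II keratin that in human cells lies near desmosomes and the cell margin.

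The libraries held 37552858 to 94401699 gene counts. The 10 keratins took 0.288 to 0.534% of them. As a check of treatment, Smad7 and Skil, genes known to be induced by TGF-beta, were 2.79-fold and 2.29-fold higher in TGFb1 cells than in untreated cells (edgeR adjusted p = 0.0074 and 0.0026). Wisp1 itself stood at 892, 904 and 1065 CPM (counts scaled to the library total, with TMM factors) in Wisp1 cells on plastic, against 36.5, 47.0 and 71.4 CPM in EV cells on plastic. On collagen it stood at 1110, 1127 and 1058 CPM in Wisp1 cells, against 14.3, 15.9 and 16.4 CPM in EV cells. Epithelial markers summed to 894 to 1598 CPM over the libraries and none of the 10 was at 0, whereas 8 endothelial markers summed to at most 0.643 CPM. Epithelial marker transcripts were thus present in every library, as the label requires.

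The 10 genes fell into 3 levels. Genes were compared per kilobase of coding sequence, a scale that leaves out the untranslated parts of transcripts. The Krt7 and Krt80 transcripts held 4094 and 3067 bases, of which 1371 and 1356 were coding. That of Krt18 held 1437 bases, of which 1269 were coding. Levels of genes against each other, and their shares of the keratin transcripts, are therefore approximate. Krt18, Krt8 and Krt7 made up nearly all of the keratin transcripts in untreated cells. They stood at 1448 ± 280, 969 ± 282 and 675 ± 183 CPM per coding kilobase (SD, n = 3). Krt80, Krt19 and Krt14 followed in untreated cells with 63.0 ± 32.0, 37.4 ± 8.1 and 6.02 ± 3.11 CPM per coding kilobase. The remaining 4 genes were near or at the limit of detection, which was taken as 3 counts and lay at 0.0328 to 0.0817 CPM. The basal keratin Krt5 had no read in 17 libraries and 1 read in EV replicate 1 on collagen. Krt15 had 1 to 48 counts, Krt20 had 0 to 13 counts and Krt17 had 0 to 47 counts in a library. Krt5, Krt15 and Krt20 did not pass the filter on low counts in the main fit of any comparison, so 7 of the 10 genes were tested in each. The cells therefore carried transcripts of the basal type I keratin Krt14 without detectable transcripts of its usual partner Krt5 in all but 1 library.

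**Figure D1:**
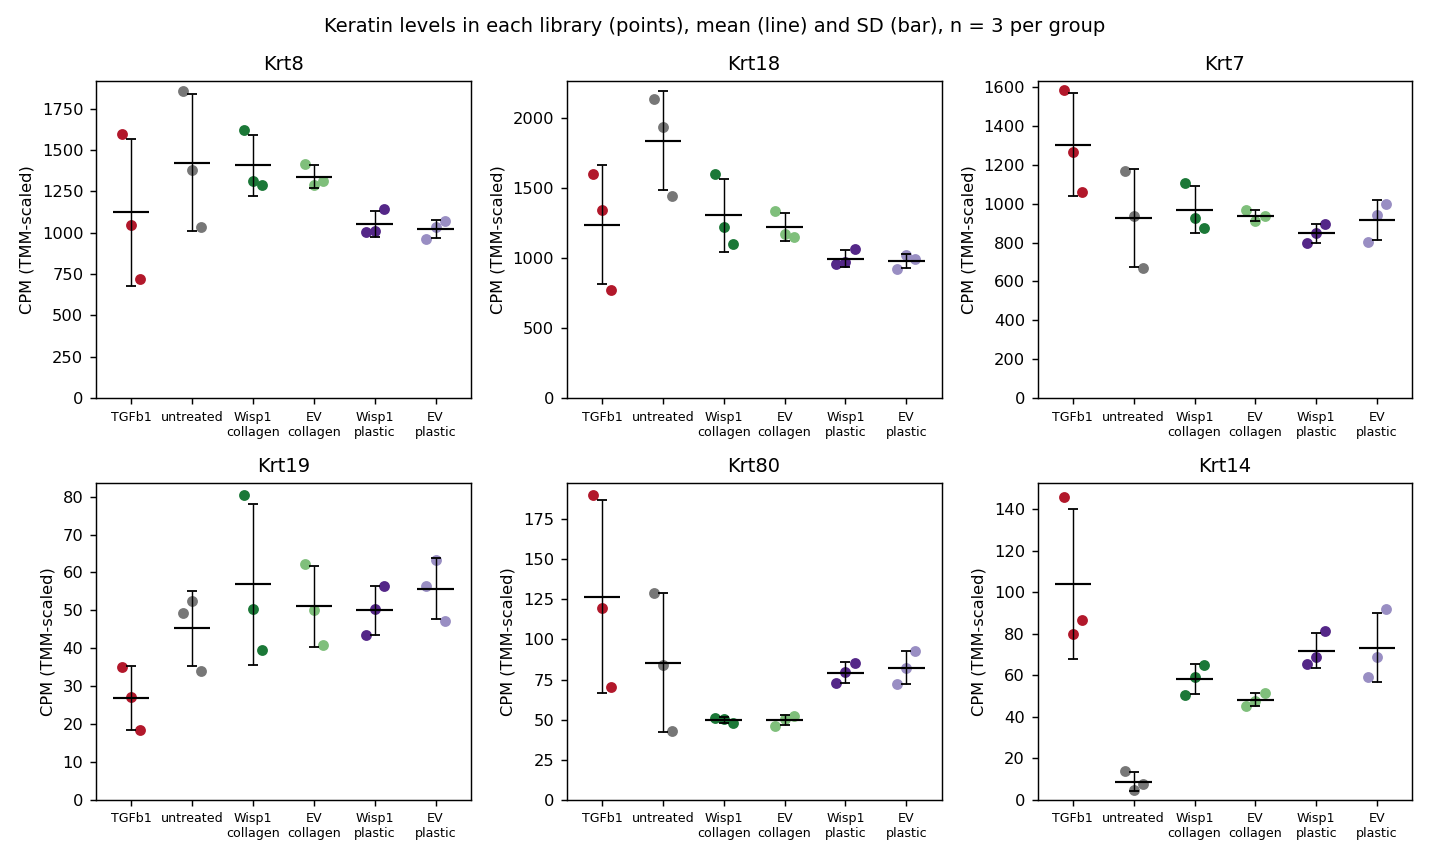
TMM-scaled CPM of 6 keratins in each of the 18 libraries, with points for libraries, a line for the mean and a bar for the SD of 3 cultures, on axes that start at 0. Krt14 lay at 79.9 to 146 CPM in TGFb1 cells and at 4.85 to 13.7 CPM in untreated cells, and Krt80 was lower on collagen than on plastic in both stable lines.

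TGFb1 against untreated cells asked how the keratins respond to the cytokine. Krt14, the type I keratin of basal cells, rose about 12-fold. It stood at 146, 79.9 and 86.8 CPM in TGFb1 cultures, against 13.7, 4.85 and 7.66 CPM in untreated cultures. Every TGFb1 culture lay above every untreated culture, and the log2 difference was 3.58 ± 0.44 (SE, edgeR adjusted p = 0.0060). It was the 1 keratin of 7 tested that was called, where 11.1% of 14874 genes were called in this comparison, 6.14% higher and 4.92% lower. Bulk RNA gives 1 value per culture, so fewer cells of a type and less RNA per cell cannot be told apart here or below.

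Krt14 shares stretches of coding sequence with its neighbours in the type I cluster on chromosome 11, and reads from such stretches cannot be assigned with certainty. Of all 50-base words of the Krt14 transcript, 14.4% also occur in another gene, mostly in Krt16 and otherwise in Krt17 (GENCODE M21 transcripts, GRCm38). The longest identical run with Krt16 is 134 bases and the longest with Krt17 is 71 bases. They are shown with their flanks because they mark where counts of these 3 genes can mix. Capitals mark bases that differ between the copies, and the stretches are coding bases 286 to 459 of Krt14 with 262 to 435 of Krt16, and coding bases 1196 to 1306 of Krt14 with 1085 to 1195 of Krt17.
Krt14 beside Krt16: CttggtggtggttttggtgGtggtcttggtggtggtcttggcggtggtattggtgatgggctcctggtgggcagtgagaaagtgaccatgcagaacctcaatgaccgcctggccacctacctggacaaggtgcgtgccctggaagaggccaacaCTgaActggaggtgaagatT
Krt16: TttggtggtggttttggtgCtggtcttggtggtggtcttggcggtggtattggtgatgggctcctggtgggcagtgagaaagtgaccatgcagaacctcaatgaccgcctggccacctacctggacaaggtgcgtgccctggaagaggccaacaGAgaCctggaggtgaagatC
Krt14 beside Krt17: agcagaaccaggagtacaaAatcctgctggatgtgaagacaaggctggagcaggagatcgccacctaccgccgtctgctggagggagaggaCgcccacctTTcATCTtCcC
Krt17: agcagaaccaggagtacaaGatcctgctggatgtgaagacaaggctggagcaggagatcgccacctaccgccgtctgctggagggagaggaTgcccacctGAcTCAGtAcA

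Krt16, a type I keratin of stressed and wound-edge epidermis, stood at 7.85, 4.45 and 8.49 CPM in TGFb1 cultures, against 1.40, 0.774 and 0.918 CPM in untreated cultures. It rose 6.76-fold (log2 2.76 ± 0.37 SE, edgeR adjusted p = 0.0076), and the groups did not overlap. In every TGFb1 culture its count was far under that of Krt14. Krt17, a keratin of stress-activated epithelium, was barely detected, at 47, 18 and 14 counts in TGFb1 cultures and 19, 0 and 6 counts in untreated cultures. The 2 groups overlapped for Krt17, and its log2 difference of 1.67 ± 1.00 was not called (edgeR adjusted p = 0.37).

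The simple keratins varied strongly between cultures and in step between the groups. Krt18 stood at 1603, 1345 and 769 CPM in TGFb1 cultures, against 2132, 1937 and 1444 CPM in untreated cultures. Its partner Krt8 stood at 1599, 1047 and 722 CPM in TGFb1 cultures, against 1859, 1382 and 1032 CPM in untreated cultures. In both genes, replicate 1 was the highest and replicate 3 the lowest culture of either group, and the groups overlapped. The type II simple keratin Krt7 was at 1585, 1265 and 1060 CPM in TGFb1 cultures and at 1170, 939 and 668 CPM in untreated cultures, with the same order of cultures. Krt19, the small type I keratin without a tail domain, was at 35.1, 27.2 and 18.4 CPM in TGFb1 cultures and at 49.2, 52.5 and 34.1 CPM in untreated cultures. Krt80 was at 190, 119 and 70.4 CPM in TGFb1 cultures and at 129, 84.3 and 42.6 CPM in untreated cultures. None of these 5 was called when the cultures were treated as unpaired.

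The parental libraries with the same replicate number carry the same code in their labels, and their deviations from the group means were correlated, so a fit with the pairs as a block was also made. In the fit with the pairs as a block, 7 of 7 tested keratins were called, 4 higher and 3 lower, where 44.9% of 14874 genes were called, 22.4% higher and 22.5% lower. Krt14 rose by 3.65 ± 0.13 on the log2 scale (SE, edgeR adjusted p = 1.6e-05) in that fit. Krt80 rose by 0.61 ± 0.06 (adjusted p = 0.00044) and Krt7 by 0.52 ± 0.07 (adjusted p = 0.00099). On the other side, Krt19 fell by 0.76 ± 0.09 (adjusted p = 0.00085), Krt18 fell by 0.60 ± 0.09 (adjusted p = 0.0020) and Krt8 fell by 0.37 ± 0.06 (adjusted p = 0.0023). Of the simple keratins, then, Krt7 moved up while Krt8, Krt18 and Krt19 moved down, and each of these 4 moved its own way in 3 of 3 pairs. Krt17 was higher by 1.77 ± 0.54 with the block (adjusted p = 0.036), on at most 47 counts, and it missed the threshold without the first pair (adjusted p = 0.054). Leaving out any other pair kept all 7 calls, and Krt14 stayed called without any single library in the unpaired fit, at log2 differences of 3.27 to 4.06.

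**Figure D2:**
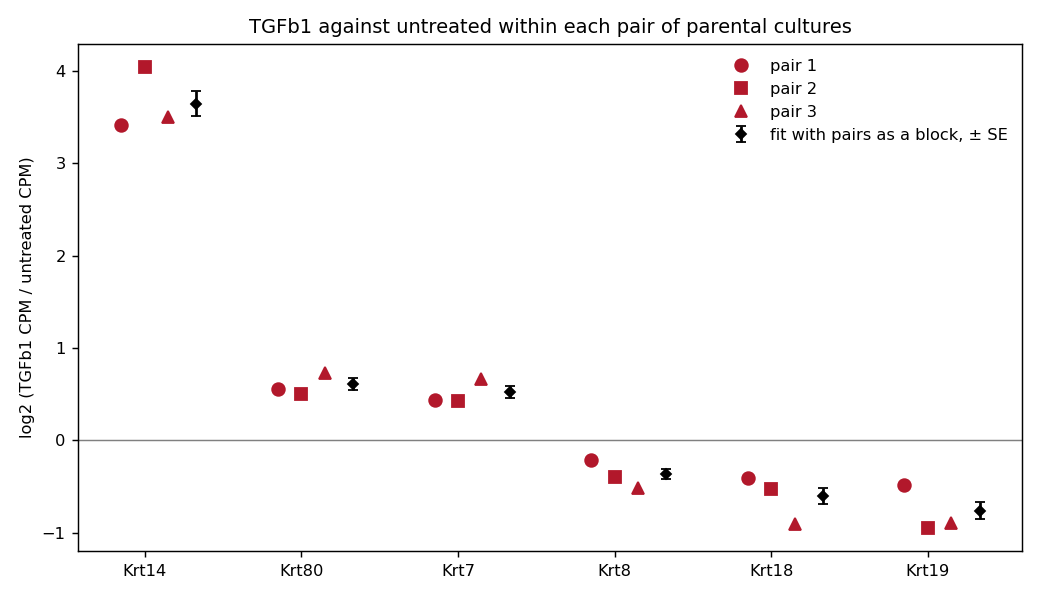
Log2 ratio of TGFb1 CPM to untreated CPM within each pair of parental cultures (circle, square and triangle for pairs 1 to 3) and the edgeR estimate with the pairs as a block (diamond, bar ± SE). Krt14, Krt80 and Krt7 were above 0 in 3 of 3 pairs, and Krt8, Krt18 and Krt19 were below 0 in 3 of 3 pairs.

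Sequence from upstream of the start is shown for the 3 abundant simple keratins, because Krt8 and Krt18 moved together and Krt7 the other way. The windows are from RefSeq (GRCm38.p6), strand-oriented and trimmed to the bases before the annotated start. They were searched on both strands for the GC box GGGCGG and the SMAD box CAGAC, which are in capitals and do not overlap each other. Krt7 is at chr15:101412153-101412401 on the plus strand, Krt8 at chr15:102004483-102004592 on the minus strand and Krt18 at chr15:102027966-102028179 on the plus strand.
Krt7: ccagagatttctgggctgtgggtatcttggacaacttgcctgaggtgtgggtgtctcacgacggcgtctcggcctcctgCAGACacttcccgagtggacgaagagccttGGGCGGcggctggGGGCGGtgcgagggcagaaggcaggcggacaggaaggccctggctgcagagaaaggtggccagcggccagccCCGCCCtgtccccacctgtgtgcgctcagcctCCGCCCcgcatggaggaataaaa
Krt8: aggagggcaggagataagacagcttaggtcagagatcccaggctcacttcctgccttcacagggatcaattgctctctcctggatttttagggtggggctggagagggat
Krt18: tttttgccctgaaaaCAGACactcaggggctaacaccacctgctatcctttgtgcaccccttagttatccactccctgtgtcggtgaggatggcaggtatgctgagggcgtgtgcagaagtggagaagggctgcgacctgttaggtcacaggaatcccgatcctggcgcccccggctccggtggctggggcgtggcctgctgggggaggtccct

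The Krt7 window of 249 bases held 4 GC boxes and 1 SMAD box, and 32.6% and 42.1% of 32851 RefSeq windows cut to that length held at least 1 of each. In the Krt18 window of 214 bases there was 1 SMAD box and no GC box, where 37.7% and 27.6% of windows of that length held them. The Krt8 window of 110 bases held neither motif, where 21.6% of windows held a SMAD box and 11.6% a GC box. All windows were cut at the end nearer the start, so the upstream bases were kept. Bases nearest the RefSeq start were thus not searched for Krt8 and Krt18, nor in the windows set beside them. The motif counts are matches of letters, and binding was not measured. The Krt8 transcript shares 29.7% of its 50-base words with other genes, mainly Krt8-ps, whose counts were not analysed here, whereas Krt18 shares 0.720%, Krt7 0.222% and Krt19 none.

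Within the keratin pool, the shares changed with TGFb1 in a way that does not depend on library scaling. Krt14 made up 2.66, 1.92 and 2.99% of the keratin CPM per coding kilobase in TGFb1 cultures, against 0.239, 0.102 and 0.221% in untreated cultures. Krt7 stood to Krt8 as 1.06, 1.30 and 1.57 to 1 in TGFb1 cultures, against 0.675, 0.728 and 0.694 to 1 in untreated cultures, with no overlap. The sum of the type II keratins over the sum of the type I keratins was 1.71, 1.51 and 1.93 in TGFb1 cultures and 1.28, 1.07 and 1.04 in untreated cultures. Krt8 over Krt18 was 0.861, 0.672 and 0.811 in TGFb1 cultures and 0.752, 0.616 and 0.617 in untreated cultures, higher in each of the 3 pairs although the groups overlapped. Krt7 took a larger share of the pool in TGFb1 cells (30.6 to 38.7%, against 20.4 to 21.6% in untreated cells), and Krt18 a smaller one (30.3 to 37.0%, against 42.6 to 47.6%). These ratios rest on transcript counts per coding kilobase, so their sizes depend on that scale, and they say nothing of the proteins.

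**Figure D3:**
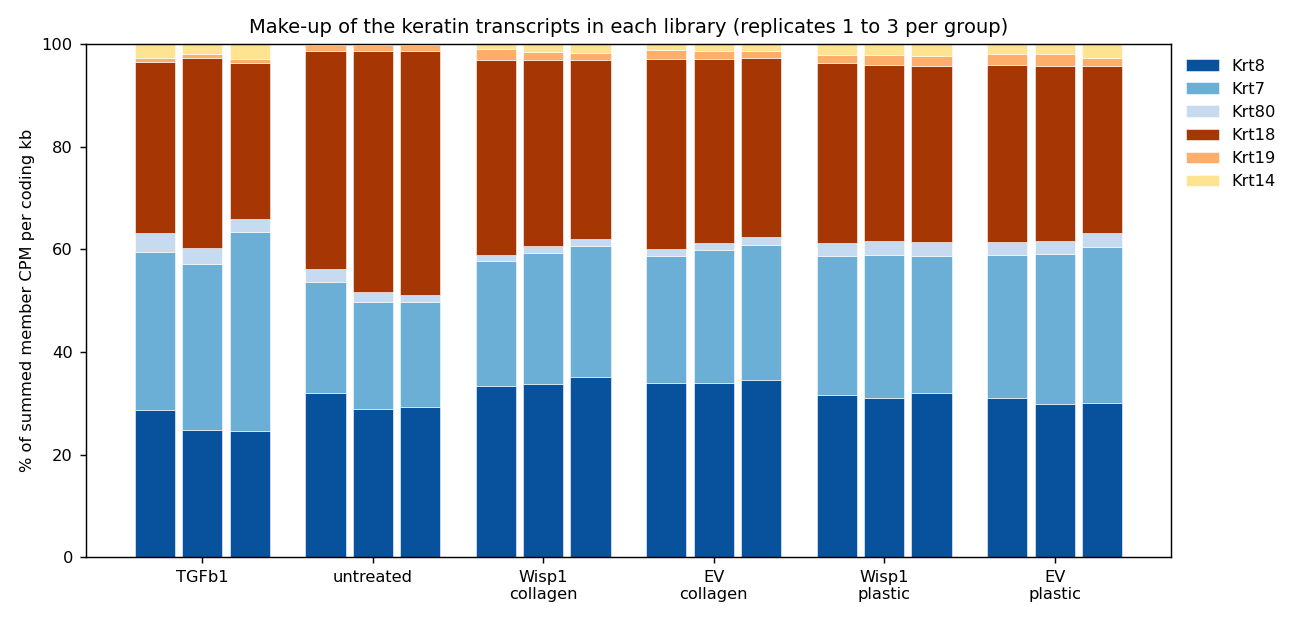
Share of 6 keratins in the summed keratin CPM per coding kilobase of each library, as stacked bars in percent, with type II keratins in blue and type I in brown to yellow. Krt14 took 1.92 to 2.99% in TGFb1 cells and 0.102 to 0.239% in untreated cells, and the Krt7 share ran from 30.6 to 38.7% in TGFb1 cells and from 20.4 to 21.6% in untreated cells.

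Among 40 further keratin genes in the tables, 7 were tested for TGFb1, and 2 rose and 2 fell at a median log2 difference of −0.40, against −0.01 over all genes. Besides Krt16, the second gene that rose was Krt42, at 20 to 31 counts in TGFb1 cultures and 3 to 9 counts in untreated cultures (edgeR adjusted p = 0.032). Krt13, a type I keratin of internal stratified epithelium, fell 4.40-fold, to 0.625, 0.735 and 0.404 CPM in TGFb1 cultures, against 1.91, 4.00 and 1.94 CPM in untreated cultures (adjusted p = 0.023). Krt23 fell to 3, 0 and 4 counts in TGFb1 cultures, against 41, 47 and 17 counts in untreated cultures (adjusted p = 0.036). Krt42 and Krt23 are named after their values were seen. Krt10, a type I keratin of epidermal differentiation, averaged 1.84 ± 0.15 CPM in TGFb1 cells and 2.44 ± 0.39 CPM in untreated cells and was not called (adjusted p = 0.35).

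Of 15 genes for proteins that link or shape keratin filaments, 7 rose and 1 fell with TGFb1, at a median log2 difference of 0.31. Sfn (14-3-3 sigma, which binds keratins in epithelial cells) rose 10.7-fold, averaging 238 ± 53 CPM in TGFb1 cells and 22.4 ± 1.0 CPM in untreated cells (edgeR adjusted p = 0.0014). The desmosomal plaque gene Pkp1 rose 3.13-fold (adjusted p = 0.017). Dsp, which encodes desmoplakin, the protein that anchors keratins to desmosomes, rose 2.38-fold, at 180 ± 25 CPM in TGFb1 cells and 76.4 ± 5.5 CPM in untreated cells (adjusted p = 0.0042). The 1 gene that fell was Ppl, for the plakin periplakin, by 3.53-fold to 37.7 ± 11 CPM in TGFb1 cells, against 134 ± 14 CPM in untreated cells (adjusted p = 0.0056). With the pairs as a block 9 rose and 1 fell. Of 10 other intermediate filament genes tested (median −0.25), Synm (synemin) rose 3.90-fold and Nes (nestin) fell 1.72-fold (adjusted p = 0.040 and 0.023), and the block gave 2 higher and 5 lower. Vim, for vimentin, the filament protein of mesenchymal cells, averaged 2093 ± 391 CPM in TGFb1 cells and 2294 ± 392 CPM in untreated cells and was not called (adjusted p = 0.74). Of 18 transcription factors tested that are known to regulate keratin genes (median −0.05), none rose and 2 fell, Tfap2c by 4.95-fold at under 1 CPM and Klf5 by 1.80-fold (adjusted p = 0.033 and 0.040). With the block 4 of these factors were higher and 7 lower.

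Markers of other cell types moved beside these keratins. Of 7 fibroblast markers tested, Col1a1, Pdgfrb and Postn rose, and the 10 markers summed to 106 to 141 CPM in TGFb1 cultures and 49.1 to 68.0 CPM in untreated cultures, with Thy1 at 0 in both. Of 3 leukocyte markers tested, Csf1r rose and Ptprc fell. Leukocyte markers summed to 7.51 to 12.5 CPM in TGFb1 cultures and 4.28 to 12.4 CPM in untreated cultures, and Cd3e and Cd3g were at 0 in both groups. Of 10 epithelial markers none was called, and with the pairs as a block 1 was higher and 2 were lower. The part of these markers in the keratin differences was not tested.

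EV cells on plastic were set against untreated parental cells to see how far the vector line's keratins stood from those of the parent. Krt14 was higher in EV cells, at 59.2, 68.9 and 91.9 CPM on plastic, against 13.7, 4.85 and 7.66 CPM in untreated parental cultures. The groups did not overlap, and the log2 difference was 3.06 ± 0.38 (SE), an 8.31-fold higher level (edgeR adjusted p = 0.0013). Krt18 was 1.90-fold lower, at 921, 1019 and 993 CPM in EV cultures, against 2132, 1937 and 1444 CPM in untreated cultures (log2 −0.92 ± 0.13 SE, edgeR adjusted p = 0.0023). These were 2 of 7 keratins tested, where 43.4% of 14476 genes were called. The line, the vector, the selection, the culture schedule and the sample codes in the labels differ together here and cannot be told apart. Ambiguous reads were 1.02 to 1.07% in untreated libraries and 1.35 to 1.65% in EV libraries on plastic. The part of such a difference between libraries was not tested. This comparison and the one with TGFb1 share the untreated cultures.

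Krt8 was at 961, 1034 and 1069 CPM in EV cultures, against 1859, 1382 and 1032 CPM in untreated cultures, and its log2 difference of −0.49 ± 0.19 missed the threshold (edgeR adjusted p = 0.069). It passed without untreated replicate 3 (adjusted p = 0.0039). Krt17 was at 15, 28 and 21 counts in EV cultures and 19, 0 and 6 counts in untreated cultures and was not called (adjusted p = 0.10), but it passed without untreated replicate 1 (adjusted p = 0.0082). Krt7, Krt80 and Krt19 differed by −0.03 ± 0.19, −0.06 ± 0.34 and 0.29 ± 0.18 on the log2 scale and were not called. The ratio of Krt8 to Krt18 per coding kilobase was 0.901, 0.876 and 0.929 in EV cultures on plastic, all above the 0.752, 0.616 and 0.617 of untreated cultures.

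Krt16 was 3.40-fold higher in EV cells on plastic and Krt13 was 4.98-fold lower (edgeR adjusted p = 0.0037 and 0.0030). Krt23 had 0 counts in each of the 3 EV cultures, against 41, 47 and 17 counts in untreated cultures. Among 15 linker genes (median log2 difference 0.09, against −0.05 over all genes) 5 were higher and 3 lower, with Ppl 2.60-fold lower, Sfn 2.07-fold higher and Dsp 1.93-fold higher (adjusted p = 0.00038, 0.0024 and 0.00052). Of 18 transcription factors (median −0.22) 3 were higher and 4 lower, led by Tfap2c (3.33-fold lower) and Cebpa (2.75-fold higher). Of the other intermediate filament genes (median 0.16) 3 were higher and 2 lower of 10 tested, and Nes was 1.77-fold higher. Fibroblast markers summed to 30.3 to 51.6 CPM in EV cultures and 49.1 to 68.0 CPM in untreated cultures, with Dcn, Lum and Thy1 at 0 in EV cells, and 2 were higher and 1 lower of 5 tested (median 1.10). Epithelial markers summed to 1075 to 1215 CPM in EV cultures and 1223 to 1354 CPM in untreated cultures, and 2 of 10 were higher and 4 lower. Leukocyte markers summed to 5.32 to 7.02 CPM in EV cultures and 4.28 to 12.4 CPM in untreated cultures, although Laptm5 and Emr1 had 15 to 33 counts in EV cultures and at most 1 in untreated cultures. Of 5 leukocyte markers tested, 3 were higher and 1 lower (median 2.29). The part of these markers was not tested.

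Wisp1 against EV asked whether overexpression of this CCN family protein alters the keratins. On plastic, 0 of 7 tested keratins were called by edgeR, where 0.0143% of 13953 genes, 2 genes, were called, and none of the 7 had an unadjusted p under 0.05. Krt14 was at 65.5, 68.6 and 81.5 CPM in Wisp1 cultures, against 59.2, 68.9 and 91.9 CPM in EV cultures. The groups overlapped fully, and the log2 difference was −0.03 ± 0.15 (SE). Krt8 and Krt18 differed by 0.04 ± 0.08 and 0.03 ± 0.11, Krt7 by −0.11 ± 0.08 and Krt80 by −0.05 ± 0.08 on the log2 scale. Krt19 and Krt17 had wider errors, with differences of −0.15 ± 0.25 and 0.20 ± 0.24.

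On collagen, 0 of 7 were called as well, where 0.0717% of the 13953 genes, 10 genes, were called, and again none of the 7 had an unadjusted p under 0.05. The gene with the greatest difference was Krt14, at 50.3, 59.1 and 64.9 CPM in Wisp1 cultures, against 45.3, 47.5 and 51.5 CPM in EV cultures. The groups overlapped, and the log2 difference was 0.27 ± 0.15 (edgeR adjusted p = 0.996). With replicate numbers as a block within each substrate, the Krt14 difference was 0.27 ± 0.06 and still missed the threshold (adjusted p = 0.062). That block called 0 of 7 keratins on collagen, on plastic and in the test of the difference between them, where it called 2.57%, 3.15% and 0.502% of genes. Krt8 differed by 0.07 ± 0.08, Krt18 by 0.10 ± 0.11, Krt7 by 0.05 ± 0.08 and Krt80 by 0.00 ± 0.08 on the log2 scale, and Krt19 and Krt17 by 0.16 ± 0.25 and 0.13 ± 0.26. The test of whether the Wisp1 effect differed between collagen and plastic called 0 of 7 keratins and 0 of 13953 genes with edgeR, with 410 genes at an unadjusted p under 0.05 and 1 gene called by DESeq2. DESeq2 also called 0 of the 7 keratins in each Wisp1 comparison. With 3 cultures a group, these results do not show that Wisp1 leaves the keratins unaltered.

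In the other gene lists edgeR called no gene in any Wisp1 comparison without the block, with 0 to 2 genes a list at an unadjusted p under 0.05. The block within substrate called some. On plastic it called Vim, Nes and Lmna higher among 8 other intermediate filament genes, and Plec, for the linker protein plectin, higher among 15 linker genes. Of 10 epithelial markers it called Epcam, Cldn4, Cldn7 and Esrp1 lower, and of 5 fibroblast markers Col3a1 lower. On collagen it called Krt16 higher among 3 other keratins (log2 0.46 without the block, edgeR adjusted p = 0.032 with the block and 0.996 without), Ppl higher among the linker genes, Esrp1 lower among the epithelial markers, and Col3a1 lower. In the test of the difference between the substrates, Nes was lower and Epcam higher. These genes are named after their values were seen. The part of the marker genes in the keratin values was not tested.

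Collagen against plastic asked how keratin levels differed between the substrates within each stable line. The sample codes in the labels also differ between collagen and plastic cultures. The substrate and a difference between sets of libraries therefore cannot be told apart. Ambiguous reads were 1.35 to 1.95% in the stable-line libraries on plastic and 1.79 to 2.08% in those on collagen. The part of such a difference in the keratin values was not tested. In both lines the simple pair Krt8 and Krt18 was higher on collagen, and Krt80 and, on at most 28 counts a library, Krt17 were lower. In EV cells 5 of 7 tested keratins were called, 2 higher and 3 lower, where 36.5% of 13953 genes were called, 19.2% higher and 17.3% lower. In Wisp1 cells 4 of 7 were called, 2 higher and 2 lower, where 40.4% of genes were called, 21.3% higher and 19.1% lower.

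Krt80 had the clearest difference. It was at 46.3, 50.7 and 52.2 CPM in EV cells on collagen, against 72.3, 82.3 and 92.9 CPM in EV cells on plastic. In Wisp1 cells it was at 50.8, 50.6 and 47.6 CPM on collagen, against 73.0, 79.4 and 85.6 CPM on plastic. No collagen culture of either line reached the lowest plastic culture. The log2 differences were −0.72 ± 0.08 in EV cells and −0.67 ± 0.08 in Wisp1 cells (SE, edgeR adjusted p = 9.6e-06 and 2.0e-05), that is 1.65-fold and 1.59-fold lower levels.

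Krt8 stood at 1418, 1287 and 1314 CPM in EV cells on collagen, against 961, 1034 and 1069 CPM in EV cells on plastic, and rose 1.32-fold (log2 0.40 ± 0.08, edgeR adjusted p = 0.0012). In Wisp1 cells it stood at 1621, 1312 and 1287 CPM on collagen, against 1001, 1013 and 1143 CPM on plastic, and rose 1.34-fold (adjusted p = 0.00069). Krt18 was 1338, 1172 and 1152 CPM in EV cells on collagen, against 921, 1019 and 993 CPM on plastic (log2 0.33 ± 0.11, adjusted p = 0.031). In Wisp1 cells Krt18 was 1599, 1218 and 1100 CPM on collagen, against 955, 968 and 1063 CPM on plastic (log2 0.40 ± 0.11, adjusted p = 0.011). The groups did not overlap for either gene in either line. Krt7 differed by 0.04 ± 0.08 in EV cells and 0.20 ± 0.08 in Wisp1 cells on the log2 scale and was not called (adjusted p = 0.72 and 0.063). The Wisp1 value for Krt7 passed without EV replicate 1 or 3 on plastic or without Wisp1 replicate 3 on collagen (adjusted p = 0.038, 0.046 and 0.024). Krt19 differed by −0.12 ± 0.25 in EV cells and 0.19 ± 0.25 in Wisp1 cells and was not called.

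The basal keratin Krt14 fell in EV cells, to 45.3, 47.5 and 51.5 CPM on collagen, against 59.2, 68.9 and 91.9 CPM on plastic (log2 −0.60 ± 0.15, edgeR adjusted p = 0.0092). In Wisp1 cells Krt14 was at 50.3, 59.1 and 64.9 CPM on collagen, against 65.5, 68.6 and 81.5 CPM on plastic, and the groups did not overlap, but the log2 difference of −0.30 ± 0.15 missed the threshold (adjusted p = 0.13). It passed without EV replicate 3 on plastic (adjusted p = 0.032). The difference between the lines in the Krt14 effect was itself not called (0.30 ± 0.21 on the log2 scale, adjusted p = 0.97). Krt17 was at 12, 13 and 23 counts in EV cells on collagen, against 15, 28 and 21 counts on plastic, and at 16, 14 and 14 counts in Wisp1 cells on collagen, against 17, 14 and 26 counts on plastic. Scaled for depth, these were 0.198 to 0.251 CPM on collagen and 0.358 to 0.402 CPM on plastic in EV cells, and 0.200 to 0.279 CPM on collagen and 0.381 to 0.456 CPM on plastic in Wisp1 cells, without overlap in either line. Krt17 fell by 0.73 ± 0.24 in EV cells and by 0.80 ± 0.25 in Wisp1 cells on the log2 scale (adjusted p = 0.029 and 0.021). Its transcript shares 55 of its 50-base words with Krt14, which had far more counts. The part of Krt14 reads in the Krt17 counts was not tested.

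Krt15, a keratin of basal and stem-like epithelial cells, was too low for the filter, at 48, 11 and 4 counts in Wisp1 cells on collagen, against 1, 1 and 5 counts in Wisp1 cells on plastic. The groups overlapped at 0.0798 CPM on collagen and 0.0876 CPM on plastic. With no filter on low counts its log2 difference was 2.58 ± 0.75 (edgeR adjusted p = 0.016), and in EV cells it had 10, 9 and 6 counts on collagen, against 2, 8 and 1 counts on plastic. In the fits that left out 1 library, Krt15 was not called without Wisp1 replicate 1 on collagen, which held the 48 counts. Nor was it called without Wisp1 replicate 1 or 2 on plastic.

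Calls close to the threshold depended on single libraries. In EV cells, those of Krt17 and Krt18 were both lost without any 1 of EV replicates 1, 2 and 3 on plastic or EV replicates 1 and 2 on collagen, with adjusted p of 0.057 to 0.096 for Krt17 and 0.053 to 0.13 for Krt18. In Wisp1 cells, the call of Krt17 was lost without Wisp1 replicate 1 or 3 on plastic or Wisp1 replicate 1 on collagen (adjusted p = 0.060, 0.072 and 0.13). In 1 fit of all 18 libraries, which pools the spread with that of the more variable parental cultures, none of the 5 calls in EV cells and none of the 4 in Wisp1 cells passed, with adjusted p of 0.15 to 0.48.

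**Figure D4:**
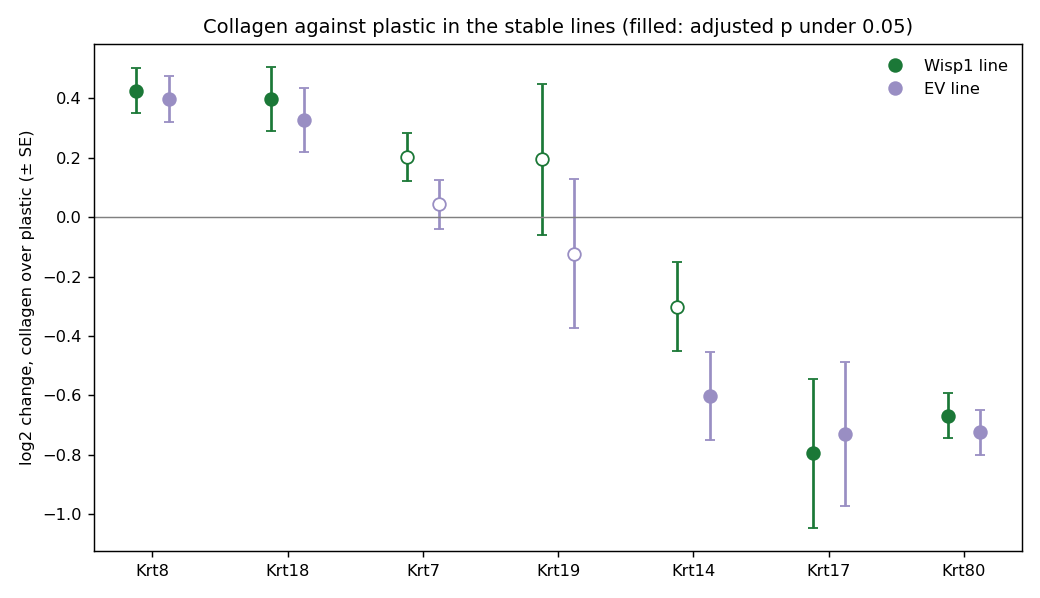
Log2 difference between collagen and plastic for 7 keratins in the Wisp1 line (green) and the EV line (violet), with bars of ± 1 SE and filled points for an edgeR adjusted p under 0.05. Krt8 and Krt18 lay above 0 and Krt17 and Krt80 below 0 in both lines, and Krt14 passed the threshold in the EV line.

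The makeup of the keratin pool also differed between collagen and plastic. Krt14 made up 1.10 to 1.37% of the pool in EV cells on collagen and 1.94 to 2.63% in EV cells on plastic, and 1.05 to 1.79% in Wisp1 cells on collagen and 2.10 to 2.31% in Wisp1 cells on plastic. Krt8 took 34.0 to 34.5% in EV cells on collagen and 29.9 to 31.1% in EV cells on plastic. Krt7 over Krt8 was 0.731, 0.759 and 0.764 in EV cells on collagen, against 0.894, 0.979 and 1.00 in EV cells on plastic, and 0.732, 0.758 and 0.728 in Wisp1 cells on collagen, against 0.855, 0.897 and 0.839 on plastic. No collagen value overlapped a plastic value in either line.

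Of the other keratins, 3 were tested in the stable lines. None was called in EV cells. There Krt13 averaged 0.923 ± 0.506 CPM on collagen and 0.531 ± 0.082 CPM on plastic. Krt16 averaged 4.96 ± 1.10 CPM on collagen and 3.55 ± 0.81 CPM on plastic in EV cells. The difference between the lines in the collagen effect was called for 0 of the 3 genes by edgeR. In Wisp1 cells Krt13 rose 2.72-fold and Krt16 rose 1.91-fold on collagen (edgeR adjusted p = 0.039 and 0.036). Krt13 was at 1.97, 0.476 and 1.14 CPM in Wisp1 cells on collagen, against 0.263, 0.517 and 0.561 CPM on plastic. Its groups overlapped, and replicate 1 on collagen was the highest culture. Krt16 was at 3.74, 8.06 and 8.96 CPM in Wisp1 cells on collagen, against 3.32, 3.02 and 4.36 CPM on plastic, so the lowest collagen culture lay within the plastic range. Of 15 linker genes, 7 were higher and 1 lower on collagen in EV cells, and 6 were higher and 1 lower in Wisp1 cells. Ppl was 1.57-fold higher in EV cells and 1.69-fold higher in Wisp1 cells (adjusted p = 0.0036 and 0.0014). The desmosomal gene Pkp3 was 1.52-fold and 1.53-fold higher in those lines, whereas its relative Pkp2 was 1.41-fold and 1.42-fold lower. The medians of the linker genes, 0.00 and 0.11 on the log2 scale, stood beside 0.00 and 0.01 over all genes.

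Among 18 transcription factors, 5 were higher and 2 lower on collagen in EV cells and 6 higher and 1 lower in Wisp1 cells, at medians of 0.17 and 0.15 on the log2 scale. Grhl3, a grainyhead factor of epidermal differentiation, was 5.68-fold lower in EV cells and 3.97-fold lower in Wisp1 cells (edgeR adjusted p = 4.5e-06 and 5.6e-05). It averaged 0.280 ± 0.033 CPM in EV cells on collagen and 1.61 ± 0.33 CPM in EV cells on plastic. Sox9, a factor of mammary luminal progenitors, was 1.27-fold and 1.34-fold higher in the EV and Wisp1 lines. Of the other intermediate filament genes, the nuclear lamin Lmna was 1.38-fold and 1.27-fold higher in those lines, and 1 rose and 1 fell of 8 tested in EV cells (median −0.04) while 1 rose and 3 fell in Wisp1 cells (median −0.12).

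Epithelial markers summed to 944 to 994 CPM in EV cells on collagen and 1075 to 1215 CPM in EV cells on plastic, and 5 of 10, among them Cdh1, fell. In Wisp1 cells they summed to 894 to 1072 CPM on collagen and 999 to 1082 CPM on plastic, and 2 of 10 rose and 1 fell. Fibroblast markers summed to 33.3 to 38.1 CPM on collagen and 30.3 to 51.6 CPM on plastic in EV cells, with 1 higher and 2 lower of 5 tested, and Lum and Thy1 at 0 on both. Leukocyte markers summed to 7.57 to 10.2 CPM on collagen and 5.32 to 7.02 CPM on plastic in EV cells, with 1 of 6 higher. In Wisp1 cells the leukocyte sums were 9.66 to 10.5 CPM on collagen and 5.54 to 7.90 CPM on plastic, with 1 of 6 higher, and the fibroblast sums were 30.9 to 39.1 CPM on collagen and 25.5 to 35.4 CPM on plastic, with 1 higher and 1 lower. The part of these markers in the keratin differences was not tested.

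Across the 6 groups the order of the mean levels differed between genes. Krt14 was highest in TGFb1 cells at 104 ± 36 CPM, followed by EV and Wisp1 cells on plastic (73.3 ± 16.8 and 71.9 ± 8.5 CPM), Wisp1 and EV cells on collagen (58.1 ± 7.4 and 48.1 ± 3.2 CPM) and untreated cells (8.74 ± 4.52 CPM). Neighbouring groups in that order overlapped, except Wisp1 cells on plastic with Wisp1 cells on collagen, and EV cells on collagen with untreated cells. Krt18 was highest in untreated cells at 1838 ± 355 CPM and lowest in EV cells on plastic at 978 ± 51 CPM. Neighbours in the Krt18 order overlapped, except EV cells on collagen with Wisp1 cells on plastic. For Krt80 the same held except Wisp1 cells on plastic with EV cells on collagen. In Krt7, Krt8 and Krt19 every neighbouring pair of groups overlapped.

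As a description over libraries that share lines and treatments, Krt8 and Krt18 were correlated at Pearson r = 0.830 over 18 libraries (log2 CPM), at 0.920 over the 6 parental and at 0.965 over the 12 stable-line libraries. Krt7 and Krt80 were correlated at 0.956 in the parental libraries and at −0.269 in the stable-line libraries. Krt8 and Krt80 stood at 0.619 and −0.813 in those sets. By the same measure, the genes outside the 10 keratins most like Krt14 among 12104 genes were Glipr2 (r = 0.942) and Ftl2 (r = 0.930). Most like Krt18 were Mgat3 and Echdc3 (0.967 and 0.959), and most like Krt8 were Cuedc1 and Tab1 (0.953 and 0.945). For Krt7 they were Fbxo18 and Hes1 (0.947 and 0.943), for Krt19 Pgm2 and Erbb3 (0.920 and 0.909), and for Krt80 Tfg and Bcl10 (0.961 and 0.952).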

How the data were processed

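Poly(A) RNA was sequenced from 18 cultures, with the RNeasy Plus Mini and TruSeq stranded mRNA kits, per the labels' protocols. The deposited files hold raw read counts by gene symbol that the authors had not normalized. The submitters' processing notes give the build mm9 and, without roles, R 3.2.4, limma, HTSeq, STAR, BWA and CASAVA. How strand and multiply aligned reads were handled is not given in the sources used here. Summary entries were left out: reads outside genes (10.2 to 13.5%), ambiguous reads (1.02 to 2.08%) and unaligned reads (1.84 to 3.47%).

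Counts were tested with edgeR 4.0.16 in R 4.3.3 (filterByExpr, TMM, robust quasi-likelihood F test), with Benjamini-Hochberg adjustment over all genes tested and calls at an adjusted p under 0.05. TGFb1 with untreated and EV on plastic with untreated were each fitted on 6 libraries, and the stable lines on 12. SE is the log2 difference over the square root of F. CPM was TMM-scaled over 18 libraries, as mean ± SD of 3 cultures. Depth sets the floor of 3 counts, which covers counting error only. Between replicates of a group, chi-square over its degrees of freedom was 3.13 or more, so no library was a repeat of another in its group.

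Pairing was checked by correlating deviations from group means. Parental libraries share a label code by number and gave r of 0.861, 0.731 and 0.836. Wisp1 and EV libraries of the same number gave 0.231, 0.339 and 0.388 on plastic and 0.702, 0.324 and 0.552 on collagen, with no shared code. Alternatives were RLE factors, other filters, 1 fit of 18 libraries, replicate blocks, DESeq2 1.42.0 and leaving out each library. The blocked fits without 1 pair were added after the data were seen. Scripts were tested on simulated data.

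The keratins and gene lists were chosen with earlier results of these data known. Named were all 10 keratins and, of the other keratins, the 3 most abundant and any called at 2-fold or more with a mean of at least 1 CPM. Of other lists, up to 3 called genes with the largest change and 1 that moved the other way were eligible. Coding lengths and shared words are from GENCODE M21 (GRCm38). RefSeq (GRCm38.p6) held windows for 6 of the 10 keratins. The counts are of mm9, so no other coordinates are given. Some genes of the lists and of the treatment check are not reported here.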

Additional observations from a re-analysis of the deposited data

How the results depend on the processing

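Replicate blocks called other numbers of genes. Of the 7 tested keratins, a replicate block changed no other call than those given here and above. For TGFb1, genes called came to 6672 with the pairs as a block (7 keratins), 6261, 4344 and 6344 with the block and pair 1, 2 or 3 left out (6, 7 and 7 keratins), 2910 with DESeq2, and 4865 in 1 fit of 18 libraries (4 keratins: Krt7, Krt14, Krt18 and Krt19). Without 1 library and without the block they came to 380 (without untreated replicate 2) to 1430, with 1 keratin called each time, and fell by over 1.5 times without any library other than TGFb1 replicate 1.

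For EV against untreated cells the numbers did not pair the libraries (r of −0.152, 0.0899 and −0.0396), and a replicate block gave Krt7 and Krt80 log2 differences of 0.0006 and 0.0644, the opposite sign of uncalled values near 0. DESeq2 called Krt8 (adjusted p = 0.049) and the 18-library fit called Krt17 (0.022). Leave-one-out counts were 3711 to 8557 genes, over 1.5 times lower without untreated replicate 2 or any EV library, and 2 to 3 keratins, with Krt7 at −0.2125 to 0.2051 and Krt80 at −0.3795 to 0.3968.

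For Wisp1 on plastic, genes called came to 440 with the replicate block within each substrate (3.15%), 18 with DESeq2 (77.8% higher, against 100% with edgeR), and 1 each with the stricter filter and the 18-library fit. On collagen they came to 358 with that block, 18 with a block over all 4 stable groups, 40 with DESeq2 (72.5% higher, against 60.0% with edgeR), 6 with the stricter filter, 4 in the 18-library fit and 32 where no gene was filtered out. The interaction gave 70 genes with the block within substrate and 1 with DESeq2. In all of these 0 keratins were called. Krt80 on collagen turned to −0.0019 with no filter. Leave-one-out counts were 1 to 4 genes on plastic, 5 to 14 on collagen and 0 to 1 for the interaction. Uncalled values near 0 changed sign in some of these: on plastic Krt14 (−0.1481 to 0.1674), Krt18 (−0.0161 to 0.0502), Krt8 (−0.0121 to 0.0787) and Krt80 (−0.1301 to 0.0387). On collagen these were Krt18 (−0.0635 to 0.2024), Krt19 (−0.1687 to 0.3612), Krt7 (−0.0468 to 0.1135), Krt8 (−0.0329 to 0.1266) and Krt80 (−0.0422 to 0.0286). In the interaction they were Krt17 (−0.1544 to 0.1211), Krt18 (−0.0903 to 0.1756), Krt19 (−0.0156 to 0.5144), Krt8 (−0.0774 to 0.0841) and Krt80 (−0.0368 to 0.1318).

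For collagen against plastic the 18-library fit called 0 keratins and 1629 genes in EV cells and 1 keratin (Krt15, adjusted p = 0.032) and 2071 genes in Wisp1 cells, and it pools the spread with that of the parental cultures. The numbers did not pair these libraries (r of 0.258, −0.162 and 0.451 in EV, −0.0503, −0.178 and −0.0578 in Wisp1), and a replicate block over 4 groups called Krt14 in Wisp1 cells (adjusted p = 0.0047). Without a filter, EV cells had 3 keratins called, Krt17 and Krt18 being lost, and Wisp1 cells lost Krt17 (adjusted p = 0.075). DESeq2 lost Krt17 in both lines (adjusted p = 0.12 and 0.093). Leave-one-out gave 3 to 5 keratins and 3849 to 5562 genes in EV cells, with Krt19 at −0.2906 to 0.025 and Krt7 at −0.0356 to 0.1112. In Wisp1 cells it gave 3 to 7 keratins, with Krt15 among them in some fits and Krt19 in none. There it gave 4450 to 5692 genes, with Krt19 at −0.1394 to 0.3914. Beyond that and where no value is given, the cause was not tested. Krt5, Krt15, Krt17 and Krt20 had at most 48 counts in a library, and the part of depth in this was not tested. RLE scaling shifted the median of all genes by under 0.05 and changed no keratin's direction.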
